A study of Mus musculus with 12 samples.

Results

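The genes described here are the 10 genes of fatty acid uptake and binding Cd36, Lpl, Gpihbp1, Vldlr, Fabp3, Fabp4, Fabp5, Slc27a1, Slc27a3 and Slc27a4, out of 16411 genes in the deposited table of counts. They were listed by name for their role, and every one of them had a row with a value in all 12 samples. All 10 passed the expression filter.

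The study sequenced RNA of 6 tumors and 6 benign samples from the mammary glands of female, untreated MMTV-Neu-NDL-YD5 transgenic mice on an FVB background. In these mice the MMTV promoter drives an activated form of HER2/Neu, to which the YD phosphorylation site was added back, in the mammary epithelium, and the mice were heterozygous for the transgene. The benign tissue carried the same transgene as the tumors: it was mammary tissue with no visible tumor, taken as far as possible from the tumor, and the tumors and benign samples sequenced came from different mice. Pieces of whole tissue were used, so cells of the surrounding fat pad, vessels and stroma are in each sample, and the age of each mouse at collection is not given in the sources used here.

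Long-chain fatty acids reach a cell in part from triglyceride in circulating lipoproteins. Lipoprotein lipase, held on the capillary wall by GPIHBP1, cleaves the triglyceride, and the released fatty acids enter through the membrane receptor CD36 and the SLC27 (FATP) proteins, which are also acyl-CoA synthetases, while the VLDL receptor binds triglyceride-rich lipoproteins. Inside the cell the fatty acid binding proteins (FABPs) carry fatty acids through the cytosol, with FABP4 typical of adipocytes, FABP3 of heart, skeletal muscle and brown fat, and FABP5 of epithelial cells and macrophages.

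Library totals lay between 5240853 and 8170687 counts for benign tissue and between 6111393 and 8588567 counts for tumors. Levels are given as CPM, counts scaled to library size after TMM normalization, and 3 counts correspond to 0.411 CPM at the mean library size. Erbb2, the mouse gene for HER2, ranged from 44.8 to 73.7 CPM in benign tissue and from 1989 to 16634 CPM in tumors, which parts the samples as they are labelled. The benign samples held adipocyte transcripts (the summed CPM of 6 markers ranged from 4010 to 8266, against 5.91 to 49.7 in tumors), and all 6 of these markers fell in tumors, with none at 0 counts in any tumor. All 8 endothelial markers fell too, from a summed 685 to 1342 CPM to 96.0 to 117.6 CPM. Of 6 luminal epithelial markers 5 rose and 1 fell (848 to 2238 CPM against 2173 to 3995 CPM summed), all 6 basal epithelial markers fell, and of 6 macrophage markers 4 fell. Benign samples 3, 4 and 6 also held skeletal muscle transcripts, with 34330 to 89060 CPM summed over 10 markers against 32.98 to 380.1 CPM in benign samples 1, 2 and 5 and 0.84 to 150.8 CPM in tumors. In such pieces of tissue, fewer cells of a type and less RNA per cell cannot be told apart, and the part of these markers in the results that follow was not tested.

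In the comparison of tumors with benign tissue, 8 of the 10 genes fell and 2 rose at an adjusted p-value under 0.1 (edgeR's quasi-likelihood test, Benjamini-Hochberg adjustment over the 13191 genes tested). Lpl, Fabp4, Cd36, Gpihbp1, Fabp3, Slc27a1, Fabp5 and Slc27a3 were lower in tumors, and Slc27a4 and Vldlr were higher. Of all genes tested 34.8% were called lower and 28.2% higher, so that 8 of 10 stands above the background share and 2 of 10 is near it. The 10 genes were chosen with earlier results of these data known, so these counts are a description only. Over the 10 genes the log2 fold changes had a median of −3.31, against −0.06 over all genes tested. In 7 of the 8 genes that fell every tumor was below every benign sample, which held for 21.2% of all genes tested, and in Slc27a4 alone every tumor was above every benign sample, which held for 14.7%. Cd36 and Fabp4 are genes that the study itself picked out of these samples. It also named Acsl1 and the adipocyte marker Adipoq, both used here, as lower in tumors. The direction of these genes is therefore not independent evidence.

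**Figure D1:**
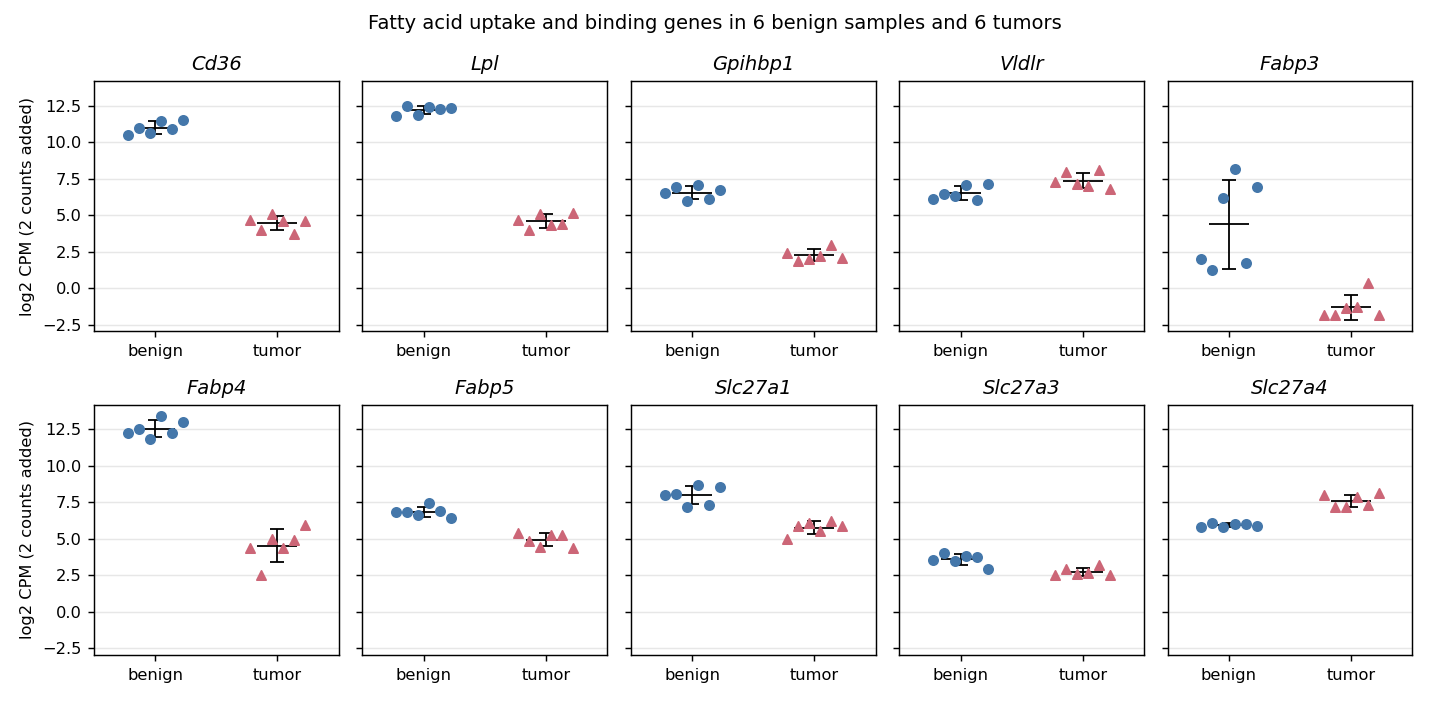
Level of each gene as log2 CPM with 2 counts added (vertical axis, the same in all panels) in the 6 benign samples (circles) and the 6 tumors (triangles); the horizontal bar is the mean and the whiskers 1 SD. Lpl, Fabp4 and Cd36 lie far apart between the groups, Vldlr and Slc27a3 lie close together, and the benign samples of Fabp3 split into a set near 6 to 8 and a set near 1 to 2.

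Lpl, the lipase that releases fatty acids from lipoprotein triglyceride, was among the most abundant of these transcripts in benign tissue. Its level ranged from 3507 to 5777 CPM in benign tissue with a median of 5093 CPM, and from 15.3 to 34.5 CPM in tumors with a median of 23.0 CPM. No tumor came near a benign sample. The log2 fold change was −7.58 (standard error, SE, 0.30, edgeR adjusted p = 2.2e-09), a 191-fold lower level. Lpl lies on chromosome 8 (GRCm38, chr8:68880491-68907448, plus strand, GENCODE M21 annotation). Among the 10 genes it varied little between benign samples, with a coefficient of variation of 19.7%.

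Gpihbp1 encodes the capillary protein that carries lipoprotein lipase to the vessel lumen (chr15:75596628-75599481, plus strand). Its level ranged from 60.9 to 136.5 CPM in benign tissue (median 96.5 CPM) and from 3.44 to 7.54 CPM in tumors (median 4.14 CPM). The groups did not overlap, and the log2 fold change was −4.36 (SE 0.26, edgeR adjusted p = 3.3e-08), or 20.6-fold lower. The tumor values rest on 25 to 59 counts per library.

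Cd36, the membrane receptor for long-chain fatty acids, ranged from 1455 to 2896 CPM in benign tissue with a median of 1965 CPM. In tumors it ranged from 12.9 to 33.9 CPM with a median of 24.3 CPM. Every tumor was far below every benign sample, and the log2 fold change was −6.54 (SE 0.32, edgeR adjusted p = 7.0e-09), 93.0-fold lower. The gene lies on the minus strand of chromosome 5 (chr5:17781690-17888801).

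Vldlr, the receptor for triglyceride-rich lipoproteins (chr19:27216484-27254231, plus strand), moved the other way. It measured 68.6, 86.2, 80.2, 132.7, 64.9 and 137.9 CPM in benign samples 1 to 6 and 152, 249, 139.9, 126, 272 and 109 CPM in tumors 1 to 6. Tumors 4 and 6 lay below benign samples 4 and 6, so the groups overlapped, and 4 of 6 tumors were above every benign sample. The mean rose from 95.1 ± 32.1 to 174.9 ± 68.5 CPM (SD, n = 6 per group), a log2 fold change of 0.88 (SE 0.27, edgeR adjusted p = 0.0145), 1.84-fold higher.

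Sequence upstream of the start of transcription is shown for both genes that rose and for a membrane receptor and a transporter among the genes that fell, so that each direction has an example: RefSeq (GRCm38.p6) windows of 250 bases before a start were at hand for Cd36, Vldlr (2 starts), Fabp3, Slc27a1 (3 starts), Slc27a3 and Slc27a4, and not for Lpl, Gpihbp1, Fabp4 or Fabp5. Each is given 5′ to 3′ on the strand of the gene, with capitals on matches, on either strand, to AGGTCA (the core element of nuclear receptors such as the PPARs), GGGCGG (the GC box), CCAAT (the CCAAT box), CACGTG (the E-box) or TATAAA (the TATA box); the motifs searched do not overlap in these windows.
Cd36, chr5:17835897-17836146, minus strand: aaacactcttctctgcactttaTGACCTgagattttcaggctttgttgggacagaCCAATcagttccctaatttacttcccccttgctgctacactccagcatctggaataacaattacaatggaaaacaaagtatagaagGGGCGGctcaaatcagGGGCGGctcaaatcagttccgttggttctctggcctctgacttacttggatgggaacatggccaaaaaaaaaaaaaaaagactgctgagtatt
Slc27a1, chr8:71568621-71568870, plus strand: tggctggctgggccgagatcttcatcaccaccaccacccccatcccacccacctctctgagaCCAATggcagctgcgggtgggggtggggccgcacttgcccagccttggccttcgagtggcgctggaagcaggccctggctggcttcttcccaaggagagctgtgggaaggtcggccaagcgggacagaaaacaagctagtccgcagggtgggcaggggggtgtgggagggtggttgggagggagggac
Slc27a4, chr2:29802384-29802633, plus strand: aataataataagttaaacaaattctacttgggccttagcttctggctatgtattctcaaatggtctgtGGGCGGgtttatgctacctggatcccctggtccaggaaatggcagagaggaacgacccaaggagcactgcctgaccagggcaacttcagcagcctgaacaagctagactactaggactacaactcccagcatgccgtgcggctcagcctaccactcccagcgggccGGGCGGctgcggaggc
Vldlr, chr19:27216234-27216483, plus strand: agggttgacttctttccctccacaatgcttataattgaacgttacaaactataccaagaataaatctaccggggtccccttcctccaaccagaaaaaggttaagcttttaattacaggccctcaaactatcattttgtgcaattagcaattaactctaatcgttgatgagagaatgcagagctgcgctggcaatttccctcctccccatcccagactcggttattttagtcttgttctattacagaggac

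Cd36 held 1 AGGTCA element, 2 GC boxes and 1 CCAAT box within 250 bases, and the Slc27a4 window held 2 GC boxes and none of the other motifs. The window shown for Slc27a1, at its outermost start, held a CCAAT box only, and the one shown for Vldlr held none of the 5 motifs. Other starts differed: the window of the second Vldlr start held 1 GC box and 1 CCAAT box (GC content 66.4%), and those of the other Slc27a1 starts held 1 GC box in the one case and 3 GC boxes, 1 CCAAT box and 1 E-box in the other. Of 32851 windows of the same length, 14.0% held an AGGTCA element, 32.7% a GC box, 33.8% a CCAAT box, 6.02% an E-box and 12.4% a TATA box. In the windows shown the GC content was 43.2% for Cd36 and 41.6% for Vldlr, 66.4% for Slc27a1 and 54.4% for Slc27a4. A match to such letters is a description and does not show that a factor binds there.

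Among the SLC27 transporters, Slc27a1 (FATP1) fell, Slc27a3 (FATP3) fell by less, and Slc27a4 (FATP4) rose. Slc27a1 (chr8:71568882-71587302, plus strand) ranged from 142.7 to 407.8 CPM in benign tissue (median 266 CPM) and from 31.0 to 74.4 CPM in tumors (median 58.7 CPM), with no overlap. Its log2 fold change was −2.27 (SE 0.29, edgeR adjusted p = 2.5e-05), 4.81-fold lower.

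Slc27a3 (chr3:90385239-90389938, minus strand) was the lowest of the 3 transporters in both groups per kilobase. It measured 11.7, 16.2, 10.7, 13.9, 13.1 and 7.46 CPM in benign samples 1 to 6 and 5.45, 7.43, 5.78, 6.08, 8.95 and 5.49 CPM in tumors 1 to 6. Tumor 5 lay above benign sample 6, and the other 5 tumors were below every benign sample. The log2 fold change was −0.90 (SE 0.21, edgeR adjusted p = 0.0028), 1.86-fold lower, on 35 to 136 counts per library.

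Slc27a4 (chr2:29802634-29817522, plus strand) was the steadiest of the 10 genes in benign tissue, with a coefficient of variation of 7.79%. Its level ranged from 55.6 to 66.1 CPM in benign tissue (median 61.8 CPM) and from 147 to 275 CPM in tumors (median 193.8 CPM). Every tumor was above every benign sample, and the log2 fold change was 1.72 (SE 0.18, edgeR adjusted p = 3.2e-06), 3.30-fold higher.

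The SLC27 isoforms changed by different amounts, which was tested within each sample as the difference of their log2 CPM. The log2 level of Slc27a4 minus that of Slc27a1 was −2.04 ± 0.59 in benign tissue and 1.85 ± 0.79 in tumors (SD, n = 6 per group), a shift of 3.88 with all 6 tumors above all benign samples (adjusted p = 0.00325, two-sided exact permutation test over 924 regroupings, adjusted over the 6 isoform pairs). Slc27a4 also shifted against Slc27a3 by 2.53, and Slc27a3 against Slc27a1 by 1.36 (both with adjusted p = 0.00325 by the same exact permutation test), and in each pair no tumor overlapped a benign sample. The smallest p-value that 6 samples against 6 can give is 0.00216 before adjustment. Per kilobase of the longest annotated transcript, Slc27a1 made up a median of 80.2% of the 3 transporters in benign tissue (range 70.5% to 87.0%) and 26.2% in tumors (13.0% to 35.6%). Slc27a4 made up 14.5% in benign tissue (10.8% to 22.1%) and 69.9% in tumors (59.3% to 84.1%), and Slc27a3 5.38% and 3.61%. With the mean length of the protein-coding transcripts instead, the median of Slc27a1 went from 88.3% to 40.6% and that of Slc27a4 from 8.13% to 55.9%, and Slc27a1 was still the largest share in tumors 3 and 5 (51.7% and 51.2%, against 44.9% and 44.1% for Slc27a4).

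Of the other SLC27 genes, the liver and kidney transporter Slc27a2 was at 0 counts in all tumors and ranged from 0.50 to 38.1 CPM in benign tissue. Its benign median was 1.59 CPM, and the highest values were in benign sample 4 (38.1 CPM) and benign sample 6 (8.2 CPM). Slc27a5 stayed at or under 0.56 CPM in every sample, and both Slc27a2 and Slc27a5 were below the expression filter. Slc27a6 was tested and was not called, with 2.13 ± 1.41 CPM in the benign group and 1.49 ± 1.06 CPM in the tumor group (SD, n = 6 per group, log2 fold change −0.53, SE 0.57, edgeR adjusted p = 0.447).

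Fabp4, the fatty acid binding protein of adipocytes, had the highest mean CPM of the 10 genes in benign tissue. It ranged from 3712 to 10814 CPM in benign tissue (median 5388 CPM) and from 5.50 to 61.2 CPM in tumors (median 25.4 CPM). The lowest tumor was tumor 2 and the highest tumor 6, and even tumor 6 was far below every benign sample. The log2 fold change was −7.81 (SE 0.59, edgeR adjusted p = 2.2e-07), 225-fold lower. The gene lies on the minus strand of chromosome 3 (chr3:10204088-10208576), in a cluster with Fabp5, Pmp2, Fabp9 and Fabp12.

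Fabp5, the epidermal fatty acid binding protein, lies on the plus strand of the same cluster (chr3:10012548-10016607) and fell by much less. Its level ranged from 85.9 to 171 CPM in benign tissue (median 114 CPM) and from 20.6 to 42.0 CPM in tumors (median 33.2 CPM). The groups did not overlap, and the log2 fold change was −1.89 (SE 0.22, edgeR adjusted p = 9.0e-06), 3.72-fold lower. Of the 31-base words of its longest protein-coding transcript 33.1% also occur in other annotated genes, chiefly the predicted genes Gm6166, Gm14328 and Gm6100, none of which has a row in the table, so how its reads were shared with such copies is uncertain.

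Fabp3, the heart and muscle fatty acid binding protein (chr4:130308595-130315463, plus strand), varied far more between benign samples than any other of the 10 genes. It measured 3.71, 2.15, 71.0, 280, 3.0 and 121 CPM in benign samples 1 to 6. In tumors it had 0, 0, 1, 1, 8 and 0 counts, or at most 1.02 CPM, the latter in tumor 5. Every tumor was below every benign sample, while benign samples 3, 4 and 6 (157.5 ± 109.3 CPM, SD, n = 3) stood well above benign samples 1, 2 and 5 (2.95 ± 0.78 CPM, SD, n = 3). The log2 fold change was −8.43 (SE 1.58, edgeR adjusted p = 0.00056). Its size depends on the samples: it was −3.63 without benign samples 3, 4 and 6, −7.43 without benign sample 4 and −10.1 without tumor 5, and the call held each time. Of the 31-base words of Fabp3 37.3% are shared with Fabp3-ps1 and Gm16179, which have no row in the table, and its exons overlap those of Zcchc17 on the opposite strand by 81 bases, so its low counts in tumors are uncertain to that extent.

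The benign samples with high Fabp3 were the samples with skeletal muscle transcripts and with the most Ucp1. Ckm, the muscle creatine kinase, measured 0.19, 0.12, 5386, 3586, 29.0 and 8572 CPM in benign samples 1 to 6, and Ucp1, the uncoupling protein of brown fat, measured 10.4, 0, 41.0, 1434, 3.37 and 217 CPM. Among the 3 high samples Fabp3 and Ucp1 were highest in benign sample 4, then 6, then 3, and Ckm in 6, then 3, then 4. These 3 samples held the most of both Ucp1 and Ckm, so muscle and brown fat cannot be told apart by such an order. Over all 6 brown fat markers the summed CPM was 232, 3154 and 903 in benign samples 3, 4 and 6 and 41.1 to 150.4 in the other 3, and 12.3 to 36.4 in tumors. In benign sample 3, 87.9 and 52.5 of the 232 CPM came from Cox8b and Cox7a1, which heart and skeletal muscle also make. Cidea, a lipid droplet protein of brown fat, was highest in benign samples 4 and 6 (873 and 315 CPM). For Cidea benign sample 3 (47.4 CPM) lay below benign sample 1 (85.6 CPM), and for Dio2 (1.45 CPM) below benign sample 5 (5.12 CPM). Ucp1, Elovl3, Cox8b and Cox7a1 were each higher in benign sample 3 than in benign samples 1, 2 and 5. Tumor 5, the only tumor with more than 1 count of Fabp3, was also the only tumor with Ucp1 counts (6.91 CPM) and had the most Ckm of the tumors (11.9 CPM). Neither muscle nor brown fat was tested as a source of these values.

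**Figure D2:**
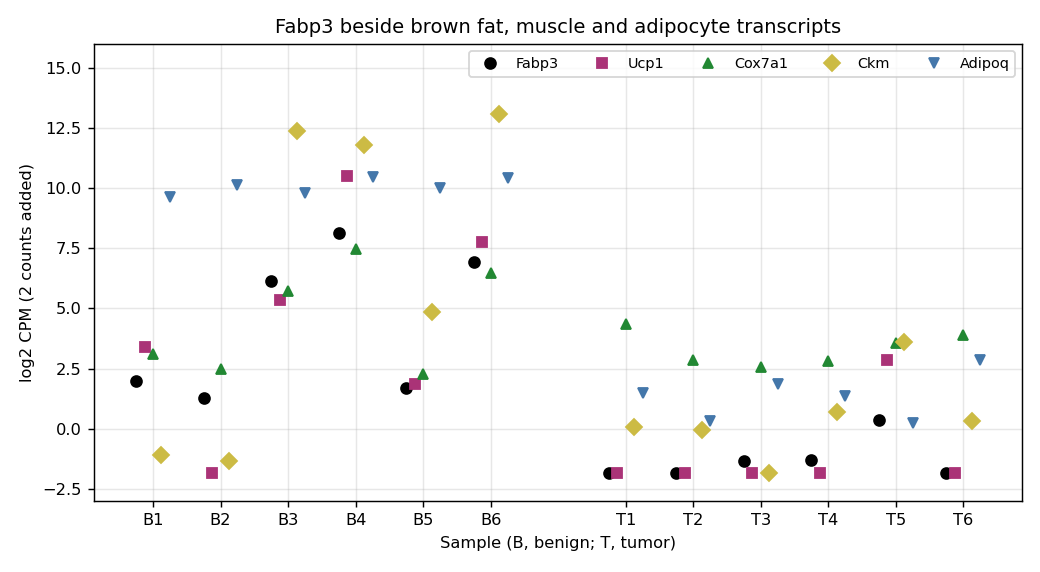
Level of Fabp3 in each benign sample (B1 to B6) and tumor (T1 to T6) as log2 CPM with 2 counts added, beside a brown fat transcript (Ucp1), a transcript that brown fat and muscle share (Cox7a1), a skeletal muscle transcript (Ckm) and an adipocyte transcript (Adipoq). Fabp3 is high in B3, B4 and B6, where Ckm and Ucp1 are also high, while Adipoq lies between 796 and 1409 CPM in all 6 benign samples.

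The FABP isoforms were compared in the same way. The log2 level of Fabp5 minus that of Fabp4 was −5.70 ± 0.50 among benign samples and 0.41 ± 1.33 among tumors (SD, n = 6 per group), a shift of 6.11 in which all 6 tumors were above all benign samples (adjusted p = 0.00325, two-sided exact permutation test). Fabp5 shifted against Fabp3 by 3.76 (adjusted p = 0.0104 by exact permutation), with 5 of 6 tumors above every benign sample. This shift was 1.04 without benign samples 3, 4 and 6 (adjusted p = 0.0833 by exact permutation) and so was no longer called. Fabp4 against Fabp3 moved by −2.35, from 8.17 ± 2.77 to 5.82 ± 1.27 (SD, n = 6 per group, adjusted p = 0.0996 by exact permutation), and by −4.85 without benign samples 3, 4 and 6 (adjusted p = 0.0143), so this pair too turned on those 3 samples.

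As a share of the 3 FABP genes per kilobase of the longest transcript, Fabp4 went from a median of 94.1% in benign tissue (range 86.7% to 97.4%) to 32.1% in tumors (13.0% to 69.4%). Fabp5 went from 2.71% (1.28% to 3.11%) to 64.3% (30.6% to 87.0%), although its own level fell. Fabp4 was still the larger share in tumors 3 and 6. The longest transcripts of Fabp4 (4231 bases) and Fabp5 (3238 bases) are much longer than the mean protein-coding ones (896 and 987 bases), and with the latter Fabp4 went from 97.6% to 41.5% and Fabp5 from 1.91% to 57.6%. Fabp3 made up a median of 3.74% in benign tissue, up to 11.6% in benign sample 4, and 0.485% in tumors per kilobase of the longest transcript. With the mean protein-coding length its median was 0.84% in benign tissue, up to 2.71% in benign sample 4, and 0.129% in tumors.

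**Figure D3:**
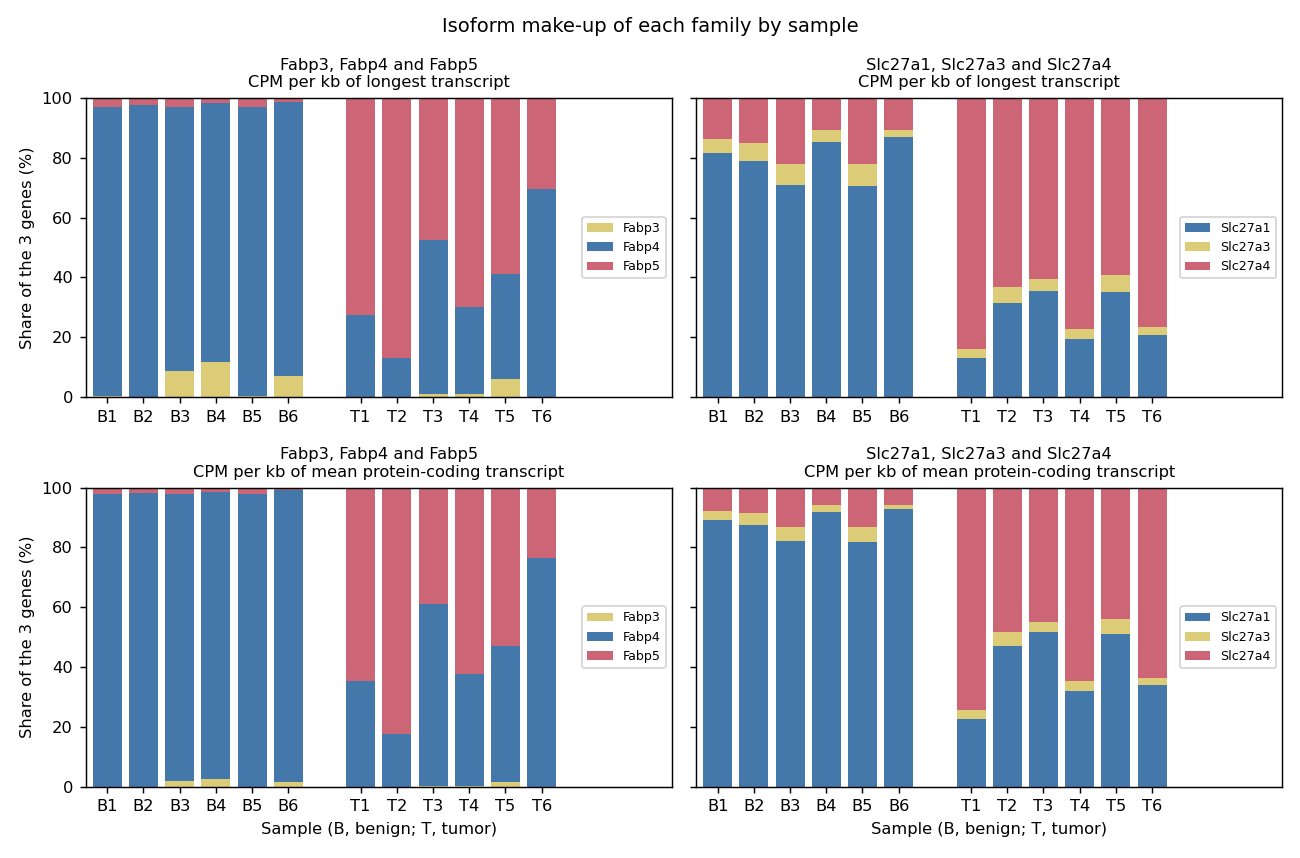
Share of each isoform (percent, vertical axis) in the summed CPM per kilobase of its family in each benign sample (B1 to B6) and tumor (T1 to T6), for the FABP genes (left) and the SLC27 genes (right), with the longest transcript (top) or the mean protein-coding transcript (bottom) as the length. Fabp4 and Slc27a1 fill most of every benign bar, and Fabp5 and Slc27a4 most of the tumor bars with the longest transcript, except that Fabp4 leads in T3 and T6.

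The other FABP genes were sparse in both groups. Fabp1, Fabp2 and Fabp6 have no row in the table, and Fabp7, Fabp9, Fabp12 and Pmp2 were below the expression filter. Pmp2, the myelin fatty acid binding protein, ranged from 0.26 to 2.31 CPM in benign tissue and was at 0 counts in all tumors. Fabp7, the brain form, reached at most 0.33 CPM and Fabp9 at most 0.36 CPM, and Fabp12 was counted only in benign sample 4 (1.25 CPM).

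The order of the 10 genes by level per kilobase of the longest transcript differed between the groups. In benign tissue the mean CPM per kilobase was highest for Fabp4 (1502 ± 623), followed by Lpl (1161 ± 229), Cd36 (623 ± 182), Fabp3 (97.5 ± 132.8), Slc27a1 (84.3 ± 33.6), Gpihbp1 (58.5 ± 18.0), Fabp5 (36.1 ± 9.0), Slc27a4 (15.1 ± 1.2), Vldlr (11.9 ± 4.0) and Slc27a3 (4.90 ± 1.21) (SD, n = 6). The steps from Fabp4 to Lpl, from Fabp3 to Slc27a1 and from Slc27a4 to Vldlr did not hold in every sample (4, 3 and 4 of 6). In tumors the mean CPM per kilobase was highest for Slc27a4 (49.8 ± 14.3), above Vldlr (21.9 ± 8.6), Slc27a1 (17.5 ± 4.9), Fabp5 (9.73 ± 2.85), Cd36 (6.69 ± 2.21), Fabp4 (6.66 ± 4.39), Lpl (6.07 ± 1.92), Gpihbp1 (2.84 ± 0.92), Slc27a3 (2.63 ± 0.56) and Fabp3 (0.26 ± 0.49) (SD, n = 6). Slc27a4 was above Vldlr in 6 of 6 tumors, while Vldlr was above Slc27a1 in 4, Slc27a1 above Fabp5 in 5, Fabp5 above Cd36 in 4, Cd36 above Fabp4 in 4, Fabp4 above Lpl in 3 and Gpihbp1 above Slc27a3 in 4 of 6 tumors. With the mean protein-coding length Fabp4 reached 7092 CPM per kilobase in benign tissue, above Lpl in all 6 samples, and in tumors Vldlr (53.6 ± 21.0) and Slc27a4 (49.8 ± 14.3) were not separated. In tumors Fabp5 (31.9 ± 9.4) and Fabp4 (31.4 ± 20.7) then lay near Slc27a1 (34.3 ± 9.6). Benign Fabp3 (97.5 ± 132.8) then ranked 7, below Slc27a1, Fabp5 and Gpihbp1. The place of Fabp3, Fabp4 and Fabp5 in these orders thus depends on the length used.

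Because adipocyte and endothelial transcripts fell in tumors too, each gene was set against these markers within each sample, as its log2 CPM minus the mean log2 CPM of the markers. Against the 6 adipocyte markers, whose median log2 fold change was −8.54, Cd36 was higher in tumors by 1.96, Lpl by 0.90 and Fabp4 by 0.48. Single markers ranged from −9.37 (Lep) to −7.45 (Cfd). The log2 fold changes of Lpl (−7.58) and Fabp4 (−7.81) lay within that range, and that of Cd36 (−6.54) above it. The difference passed the test for Cd36 (6 of 6 tumors above all benign samples, adjusted p = 0.00309, exact permutation over 924 regroupings, adjusted over the 10 genes) and for Lpl (5 of 6 tumors, adjusted p = 0.0108), and not for Fabp4 (5 of 6 tumors above and 1 below, adjusted p = 0.0553). Without benign samples 3, 4 and 6 the Lpl difference was 0.75 (adjusted p = 0.0661, exact permutation) and was not called. Slc27a4 was higher by 10.17, Vldlr by 9.35, Slc27a3 by 7.64, Fabp5 by 6.59, Slc27a1 by 6.29 and Gpihbp1 by 4.22 on this log2 scale, each in 6 of 6 tumors (adjusted p = 0.00309 by exact permutation). The markers fell so far that a gene with an unchanged level would also pass. These p-values thus say only that the genes fell less than the markers or rose. Fabp3 differed by 2.83 (adjusted p = 0.0649 by exact permutation), and by 5.38 without benign samples 3, 4 and 6 (adjusted p = 0.0149).

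Against the 8 endothelial markers, whose median log2 fold change was −3.25, the genes that fell parted into those below the mean of the markers and those above it. Single markers ranged from −4.71 (Cldn5) to −2.27 (Kdr). The log2 fold change of Gpihbp1 (−4.36) lay within that range, and Cldn5 fell by more. The difference between tumors and benign tissue was −4.75 for Fabp4, −4.34 for Lpl, −3.28 for Cd36 and −1.01 for Gpihbp1, itself a capillary gene, each with 6 of 6 tumors below all benign samples (adjusted p = 0.00271, exact permutation). Slc27a4 was higher by 4.93, Vldlr by 4.12, Slc27a3 by 2.41, Fabp5 by 1.36 (all with adjusted p = 0.00271 by exact permutation) and Slc27a1 by 1.05 (5 of 6 tumors above all benign samples, adjusted p = 0.00722). Here too the markers fell, so a gene with an unchanged level would also be higher. Fabp3 differed by −2.41 (adjusted p = 0.141 by exact permutation), and the sign turned to 0.42 without benign samples 3, 4 and 6 (adjusted p = 0.50).

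**Figure D4:**
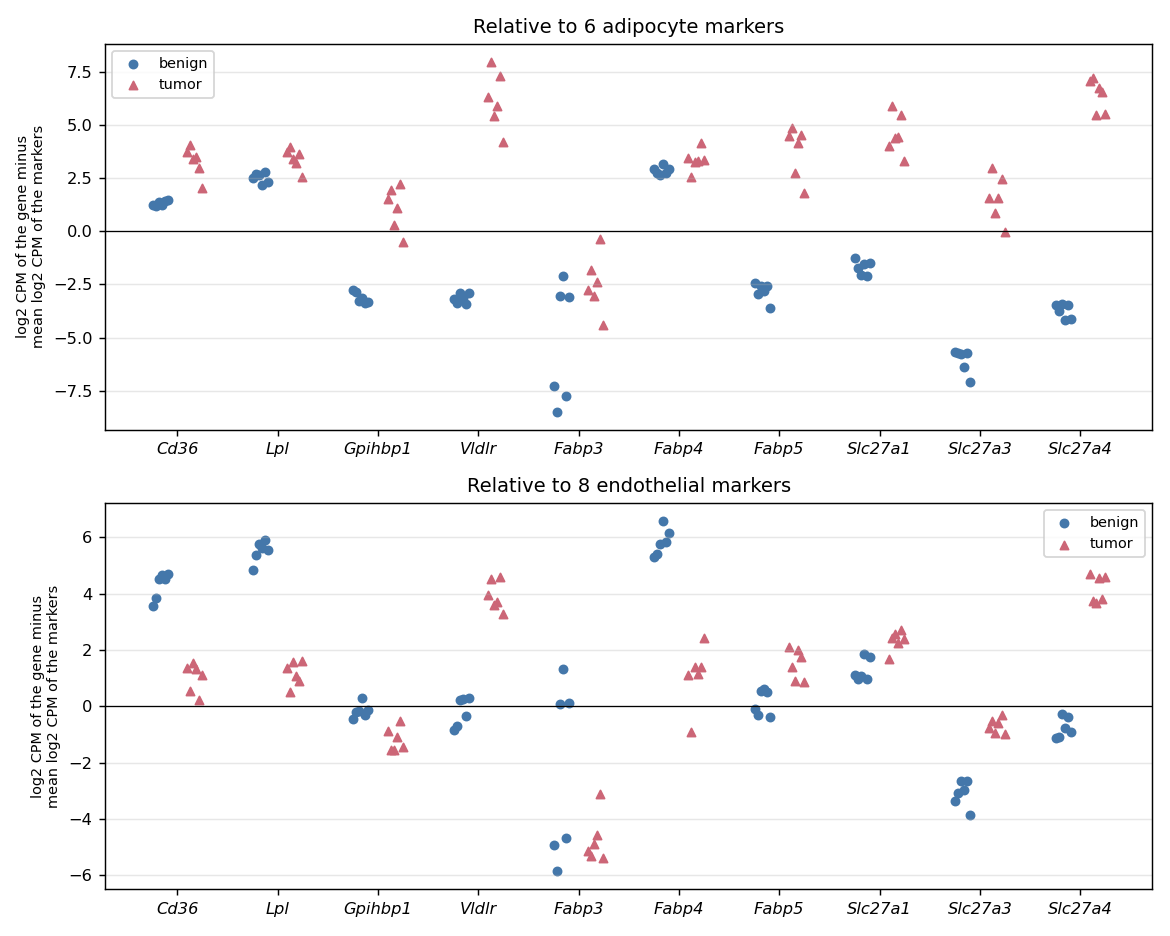
Log2 CPM of each gene minus the mean log2 CPM of 6 adipocyte markers (top) or 8 endothelial markers (bottom), for the 6 benign samples (circles) and the 6 tumors (triangles); 0 is the level of the markers. Between the groups Fabp4, Lpl and Cd36 shift least against the adipocyte markers (by 0.48, 0.90 and 1.96), and against the endothelial markers Gpihbp1 shifts by −1.01 with all 6 tumors below the benign samples. The falls of Fabp4 and Lpl lie within those of single adipocyte markers, and that of Gpihbp1 within those of single endothelial markers.

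Of 14 genes for proteins that fold, cleave, inhibit or otherwise act with lipoprotein lipase 9 were tested, 3 rose and 4 fell, with a median log2 fold change of 0.06. These shares are near those over all genes tested (28.2% higher and 34.8% lower), against which the short lists that follow are also to be read, and nothing particular to a list is drawn from its count. Angptl8, a circulating inhibitor made by fat and liver, was at 0 counts in all tumors and at 40.0 ± 33.7 CPM in benign tissue (SD, n = 6), at least 97.4-fold lower against a floor of 3 counts per library. Sel1l, part of the degradation complex of the endoplasmic reticulum that the lipase needs to mature, had the largest rise (log2 fold change 2.03, SE 0.46, edgeR adjusted p = 0.0022). Tumor 5 alone had 1603 CPM of Sel1l against 197.5 to 475.4 CPM in the other tumors, and the log2 fold change was 1.33 without it. Apoc2, Apoc3 and Lipc were below the filter, and Apoa5 has no row in the table.

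Of 6 other lipoprotein receptors 2 rose and 2 fell, with a median log2 fold change of −0.30, and the call of Sort1, 1 of the 2 that rose (edgeR adjusted p = 0.0947), was lost without benign sample 1, 3 or 5 or without tumor 1. Lsr, a receptor for lipolysis-stimulated lipoproteins that also sits at epithelial junctions, rose by 1.40 on the log2 scale (SE 0.26, edgeR adjusted p = 0.0005), from 46.5 ± 19.5 to 123.0 ± 18.3 CPM (SD, n = 6 per group). Lrp1, which takes up remnant lipoproteins, fell by 2.74 on the log2 scale (SE 0.21, edgeR adjusted p = 2.5e-07). Of 8 genes of CD36 traffic 1 rose and 4 fell, with a median of −0.68: Cav1, the caveolar coat protein, fell by 5.93 on the log2 scale (SE 0.41, edgeR adjusted p = 9.7e-08), and Zdhhc5, an acyltransferase that acts on CD36, had a log2 fold change of 0.27 (SE 0.12, edgeR adjusted p = 0.0694) with 3 of 6 tumors above every benign sample, and was not called without benign sample 5 (edgeR adjusted p = 0.136).

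Of the 4 long-chain acyl-CoA synthetases tested, enzymes that trap fatty acids in the cell as acyl-CoA, 1 rose, 1 fell and 2 were not called. Acsl4, which prefers arachidonic acid, ranged from 29.9 to 40.4 CPM in benign samples and from 580 to 1535 CPM over the tumors (log2 fold change 4.74, SE 0.28, edgeR adjusted p = 2.6e-08). Acsl1, the main form of adipocytes and muscle, ranged from 724 to 1760 CPM in benign samples and from 52.6 to 84.0 CPM over the tumors (log2 fold change −4.01, SE 0.25, edgeR adjusted p = 4.4e-08). Acsl3 and Acsl5 were not called (log2 fold changes 0.00 and −0.43), and Acsl6 was below the filter, at 0.12 to 16.3 CPM in benign tissue and at 0 counts in all tumors.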

How the data were processed

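Samples were grouped by their labels. The authors enriched poly A RNA, made directional libraries and ran Salmon, and the estimated counts per gene were deposited as unscaled whole numbers. The submitters' processing notes name the build mm10 and the tools Trim Galore, Salmon and DESeq2. The annotation, the tool versions and the use of strand are not given in the sources used here. The table has 0 columns without a sample, and no replicates agreed within sampling noise (smallest chi-square per degree of freedom 12.5 for benign and 16.4 for tumor pairs).

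The filterByExpr function of edgeR 4.0.16 (R 4.3.3, minimum count 10, minimum total 15) kept 13191 of 16411 genes. These were scaled by TMM and compared by its quasi-likelihood test (two-sided), adjusted over all of them after Benjamini and Hochberg and read at the study's threshold of 0.1. P-values measure the spread between these samples (common biological coefficient of variation 0.351). Log2 CPM used a prior count of 2. Differences within a sample were compared by exact permutation, adjusted over 6 isoform pairs or 10 genes and read at 0.05. CPM per kilobase used GENCODE M21 lengths (GRCm38, also called mm10), which may differ from the authors' annotation.

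The 10 genes and all lists were chosen with earlier results of these data known. Of each list the text names the called gene of largest change in each direction, genes at 0 or below the filter, and every FABP and SLC27 gene; 1 gene of a list is not reported here. Similar genes were ranked by Pearson correlation within a group. Alternatives were DESeq2 1.42.0, other scalings, filters, thresholds, prior counts, marker lists and lengths, a block for the replicate number, and analyses without each sample or without benign samples 3, 4 and 6.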

Additional observations from a re-analysis of the deposited data

Results flagged for a closer look

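Of 32 groups of 6 samples examined (each of the 10 genes and the 6 isoform differences, in benign tissue and in tumors), 1 had a sample apart from the rest by Dixon's criterion, where chance gives about 1 in 20. Fabp3 in tumor 5, at 1.02 CPM or 8 counts, stood away from the other 5 tumors, which had at most 1 count each. Tumor 5 was also the only tumor with Ucp1 counts and had the most Ckm, and it had the highest Vldlr, Gpihbp1, Slc27a1 and Slc27a3 of the tumors.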

How the results depend on the processing

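The counts of 2 genes higher and 8 lower held under DESeq2, other scalings, a threshold of 0.05, the replicate block and every left-out sample. When every sample had to hold 10 or more counts of a gene, 7 were lower, since Fabp3 was then not tested. No gene of the 10 changed direction or lost its call in 199 alternatives, and the largest adjusted p was 0.0571, for Vldlr with the replicate block. The replicate numbers paired no samples (correlations of deviations from −0.12 to 0.10, no sample closest to its own number). With the block, Fabp5 against Fabp3 kept its shift of 3.76 and was not called (adjusted p = 0.075, exact sign-flip test, smallest possible p 0.0312).

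Benign samples 3, 4 and 6 bore on 5 differences. Without them Fabp5 against Fabp3 was 1.04 and Lpl against adipocyte markers 0.754, both no longer called. Fabp4 against Fabp3 was −4.85 and Fabp3 against adipocyte markers 5.38, both now called, and Fabp3 against endothelial markers turned from −2.41 to 0.423. With a prior count of 0.5, Fabp4 against adipocyte markers was 0.710 and Fabp3 against endothelial markers −3.70, both now called, while Fabp4 against Fabp3 was −1.03 and Fabp3 against adipocyte markers 1.74 (neither called). Fabp3 was at 0 counts in 3 of 6 tumors, so the prior count sets the size of its differences. Leaving out 1 sample, Fabp3 against adipocyte markers ranged from 2.19 to 3.47 (called without benign sample 4), Fabp4 against adipocyte markers from 0.320 to 0.639 (called without benign sample 4 or tumor 2), and Fabp3 against endothelial markers from −3.11 to −1.68 (called without benign sample 2).

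DESeq2, which tests more low genes, called 1 other FABP gene, 1 other SLC27 gene and 2 acyl-CoA synthetases lower. At a threshold of 0.05, 1 other lipoprotein receptor and 0 genes of CD36 traffic were higher, and with the replicate block 1 other lipoprotein receptor was higher. The calls of Sort1 and Zdhhc5 were the ones lost. Over all alternatives 3 or 4 of the lipase partners were called higher and 3 to 5 lower, and 3 to 5 macrophage markers were lower, with 3 in most alternatives. The other length moved 12 of 20 levels per kilobase by more than 1 SD. Depth limits Fabp3, with 10 counts over all tumors, and the sparse FABP and SLC27 genes.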

Other observations

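Within the 6 benign samples and within the 6 tumors, the genes whose log2 CPM followed the 10 genes most closely were listed (9 genes in tumors, without Fabp3) among 10809 and 9956 genes with a mean of at least 10 CPM. The coefficients rest on 6 points each, over libraries that differ in depth and in muscle and brown fat transcripts, and they are a description only. They are the highest of a search over all these genes, and how high chance alone would reach was not assessed. In benign tissue Fabp3 was followed most closely by Ndufa12 (Pearson 0.998, Spearman 1.0), a subunit of Complex I, by Cox7a1 (0.995 and 0.943), the heart and muscle form of a cytochrome c oxidase subunit, and by Lrpprc (0.995 and 0.943), which acts on mitochondrial mRNA. Fabp4 was followed by Aqp7 (0.997 and 0.943), the glycerol channel of adipocytes, Pm20d1 (0.997 and 0.943), an enzyme that joins fatty acids to amino acids, and Atraid (0.996 and 1.0). Cd36 was followed by Ywhab, Mras and Pon2 (Pearson 0.989 to 0.995), Lpl by Sec22a, Trabd2b and Ndrg1 (0.99 to 0.999), Gpihbp1 by Scnn1b, Fosl2 and Kyat1 (0.984 to 0.998) and Slc27a1 by Acss3, Cpq and Kcnk2 (0.996 to 0.998). Slc27a4, which varied least, was followed by Lzts2, Slc35a2 and Hdac8 (0.979 to 0.982).

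In tumors Vldlr was followed by Pdk1 (Pearson 0.996, Spearman 1.0), a kinase that inhibits pyruvate dehydrogenase and responds to low oxygen, and by Dop1a (0.993 and 1.0) and Chd6 (0.991 and 1.0). Fabp5 was followed by Sqle (0.967 and 1.0), an enzyme of cholesterol synthesis, Tab3 and Ears2 (both 0.963 and 0.943). Fabp4 was followed by Hlf (0.992 and 0.943), Lsm7 (0.987 and 0.943) and Car3 (0.98 and 0.771), the last of these an abundant enzyme of fat and muscle. Slc27a4 was followed by Fig4, Aup1 and Tmx1 (0.987 to 0.995), and Slc27a1 by Rybp, Irak4 and Scnm1 (0.982 to 0.991). No gene was listed for a given member in both benign tissue and tumors.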
